A study of Bos taurus with 4 samples.

Results

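The genes described here are 10 glycolytic enzymes measured in buffalo spermatozoa: 7 that somatic cells use (ALDOA, TPI1, GAPDH, PGK1, PGAM1, ENO1 and LDHA) and 3 testis isoforms (GAPDHS, PGK2 and LDHC). They were chosen by gene name, and every sample probe that carries one of these names was taken, which gave 34 probes of the 51282 on the array and 10 of its 32429 gene names. Each of the 10 names matched a protein-coding gene of the same symbol in RefSeq by accession. RNA came from Percoll-selected spermatozoa of male Murrah buffalo (Bubalus bubalis) breeding bulls, with no treatment, and the study classed a bull as high-fertile or low-fertile when its conception rate lay 1 standard deviation above or below the mean. Equal amounts of RNA of 2 bulls were pooled, and 2 high-fertile and 2 low-fertile pools were each hybridized to 1 array of 60-base bovine probes (Bos taurus is the organism that the labels give), 4 arrays in all. The labels give no age, and the bulls behind each pool are not named. The pool was taken as the replicate, and a p-value measures the spread between pools.

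Glycolysis splits glucose into pyruvate, and lactate dehydrogenase turns pyruvate into lactate. Spermatozoa depend on this pathway for movement, and much of it is bound to the fibrous sheath of the tail. Germ cells replace several of the somatic enzymes by isoforms that are made in the testis: GAPDHS takes the place of GAPDH, PGK2 (a copy without introns) that of the X-linked PGK1, and LDHC that of LDHA. Mature spermatozoa make little or no new RNA, so the RNA measured in them was mostly laid down before they left the testis. GAPDH was also the internal control gene of the PCR in this study.

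Testing was limited to probes that stood well above background, by the mark in the scanner output, in both pools of 1 group or more. Of the 34 probes, 24 were tested and 10 were not. Of the 24 tested probes 13 passed through the high-fertile pools only and 0 through the low-fertile pools only, and a probe that enters in this way tends to lie toward the lower side in low-fertile spermatozoa, so the counts over the tested probes are a description. With limma and Benjamini-Hochberg adjustment over the 21033 probes tested on the whole array, 13 member probes were lower in low-fertile spermatozoa (17.6% of all tested probes were), 0 were higher (9.22% of all tested probes were) and 11 were not called. At an unadjusted p under 0.05, limma gave 2 higher probes. Among the 11 member probes well above background on all 4 arrays, 5 were lower, 0 were higher (1 at an unadjusted p under 0.05) and 6 were not called, where 9.89% of the 12552 such probes were lower and 13.2% were higher. The median difference (low-fertile minus high-fertile, log2) was -0.67 over the tested member probes and 0.00 over all tested probes. The groups did not overlap at 18 tested member probes that lay lower and at 2 that lay higher, where 35.5% and 33.6% of all tested probes did so. Of the 13 member probes that entered through the high-fertile pools only, 8 were called lower, and 10 lay lower and 1 higher without overlap. Of all 8145 probes that entered in that way, 30.1% were called lower and 1.38% higher, and 53.7% lay lower and 12.2% higher without overlap. At the brightest probe of a gene, 4 of the 7 member genes with a tested probe were lower (PGAM1, LDHA, ENO1 and GAPDH), 0 were higher (0 at an unadjusted p under 0.05 in limma) and 3 were not called (GAPDHS, ALDOA and TPI1), where 16.3% of the 16549 genes tested in this way were lower and 9.6% were higher. LDHA, ENO1 and GAPDHS entered through the high-fertile pools only, and of all 5746 such genes 29.8% were lower and 1.39% higher. Among the 4 member genes well above background on all 4 arrays, 2 were lower and 0 higher. Of all 10588 such genes 9.32% were lower and 13.2% higher.

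Several results turn on what the probes can tell apart, so the probes of the testis isoforms are shown here with the GAPDH probes that come closest to them. A probe is named below by the base at which it starts as the scanner output gives it, and coordinates are those of the cattle build Btau_3.1 in the same output. They can span more than 60 bases where a probe crosses an intron. Capitals mark bases of a GAPDH probe that differ from the GAPDHS probe at 1152 where the pair overlap.
GAPDHS 1152 (chr18:45628265-45628414, plus strand): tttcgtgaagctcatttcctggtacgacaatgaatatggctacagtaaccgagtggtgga
GAPDH 973 (chr5:10853755-10853916, minus strand): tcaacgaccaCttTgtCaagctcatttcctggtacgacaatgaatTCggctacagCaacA
GAPDH 990 (chr5:10853739-10853899, minus strand): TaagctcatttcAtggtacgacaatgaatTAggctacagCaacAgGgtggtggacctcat
GAPDHS 635 (chr18:45625918-45626342, plus strand): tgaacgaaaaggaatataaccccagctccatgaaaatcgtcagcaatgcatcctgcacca
PGK2 1120 (chr23:22955627-22955686, minus strand): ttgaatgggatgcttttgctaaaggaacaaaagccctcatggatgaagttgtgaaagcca
LDHC 934 (chr29:27538785-27538844, minus strand): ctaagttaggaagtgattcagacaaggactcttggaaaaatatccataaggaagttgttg

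The GAPDHS probe at 1152 had 43 of 50 overlapping bases (86.0%) in common with the GAPDH probe at 973, with a run of at least 25 bases in common, and 47 of 54 (87.0%) with the one at 990. These GAPDH probes themselves overlap by 44 bases and differ at 3 of them. The GAPDHS probe at 635 matched no GAPDH probe at more than 60.0% of the overlapping bases, the LDHC probe no LDHA probe at more than 48.4%, and the PGK2 probe no PGK1 probe at more than 42.9%. How much GAPDH RNA binds to the GAPDHS probe at 1152 was not tested. The RNA was of buffalo and the probes were designed on cattle, and the part of base differences between the species in any signal below was not tested.

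ALDOA and TPI1, which act before energy is gained in the pathway, gave no call in either direction in the main test. ALDOA, the aldolase that cuts fructose bisphosphate into triose phosphates, has 4 probes, of which 3 were tested. Its brightest, at 1302, had processed signals (background-subtracted intensity) of 58.6 and 40.7 (high-fertile) against 61.4 and 51.9 (low-fertile). The groups overlapped there, with a difference of 0.29 (SE 0.215, limma adjusted p = 0.345), which was 0.57 without the first high-fertile pool and 0.02 without the second. The ALDOA probe at 820 gave 26.4 and 27.7 against 38.7 and 30.3, and its difference of 0.43 (limma adjusted p = 0.0882) did not pass although the groups were apart. When only probes well above background on all 4 arrays were tested, it was the 1 member probe called higher. At 1520 the signals were 52.9 and 44.2 against 43.1 and 37.7, a difference of -0.17 (adjusted p = 0.454). The untested ALDOA probe at 1231 had 14.3, 26.2, 31.2 and 31.2.

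TPI1, the isomerase that interconverts the triose phosphates, has 3 probes, all tested. The brightest, at 1201, gave 129.5 and 88.0 (high-fertile) against 125.3 and 107.4 (low-fertile). These overlap, with a difference of 0.21 (SE 0.222, limma adjusted p = 0.52). Its other probes went opposite ways without passing the test: 33.2 and 37.8 against 22.8 and 27.4 at 749 (difference -0.42, adjusted p = 0.175), and 25.8 and 30.2 against 49.5 and 32.2 at 920 (difference 0.60, adjusted p = 0.0787). With a shift by spike-in signals in place of the 75th percentile, which lowers the median difference of all tested probes to -0.39, the differences at the brightest probes turned to -0.09 for ALDOA and -0.18 for TPI1. Without the second high-fertile pool TPI1 also turned, to -0.08.

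GAPDH, which oxidizes glyceraldehyde phosphate and makes NADH, was lower in low-fertile spermatozoa at its brightest probe and at 2 more. It has 8 probes, more than any other member, and 7 were tested, of which 3 were lower. The brightest, at 973, gave 172.3 and 164.5 (high-fertile) against 104.2 and 87.8 (low-fertile). That is 0.603 of the high-fertile level (difference -0.73, SE 0.142, limma adjusted p = 0.0178). The call depended on single pools: it was lost without the first high-fertile pool (adjusted p = 0.0916), the second high-fertile pool (0.0746) or the second low-fertile pool (0.0573), while the difference stayed between -0.77 and -0.69. With the median over its tested probes it was -0.58 (adjusted p = 0.0521), and with the spike-in shift -1.11 (adjusted p = 0.00799). The probes at 1186 and 1210, nearest the end of the transcript, differed more. They overlap by 36 bases and differ at 3 of them, so they largely measure the same site. At 1186 the signals were 80.1 and 82.5 against 40.0 and 37.7 (difference -0.98, SE 0.142, adjusted p = 0.00758), and at 1210 they were 190.2 and 186.1 against 86.0 and 79.9 (difference -1.10, SE 0.141, adjusted p = 0.00559). The files place the probe at 1210 on chromosome 1 and the other 7 on chromosome 5, so a second copy of the sequence in the genome cannot be told apart from GAPDH there.

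Toward the beginning of GAPDH the groups lay closer. At 177 the signals were 100.6 and 108.7 (high-fertile) against 87.8 and 82.5 (low-fertile), which are apart but gave a difference of -0.21 that did not pass the test (limma adjusted p = 0.316). A set of 3 GAPDH probes start within 5 bases of each other and serve as repeats of nearly the same site, although any pair of them differs at 4 or 5 of the 54 to 57 overlapping bases. The one at 455 had 23.9 and 21.5 against 27.6 and 20.6 (difference 0.16, adjusted p = 0.511), the one at 457 had 11.2 and 24.8 against 19.8 and 7.6 and was not tested, and the one at 460 had 36.2 and 31.4 against 24.4 and 21.2 (difference -0.48, adjusted p = 0.0699). So probes of the same site gave differences of either sign at these signals. The remaining probe, at 990, had 74.6 and 100.1 against 63.0 and 50.2 (difference -0.53, adjusted p = 0.0924).

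**Figure D1:**
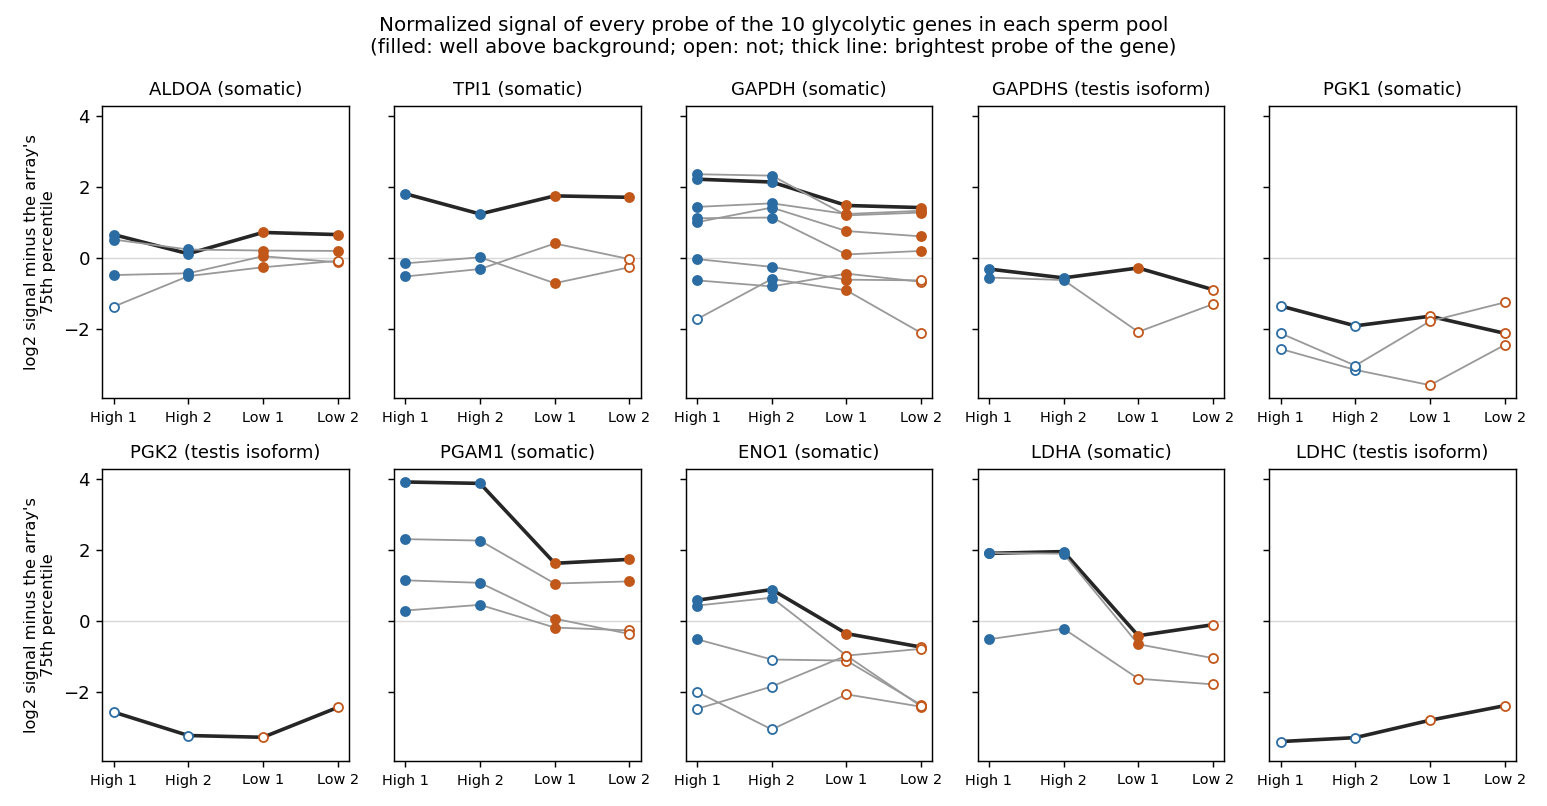
Log2 processed signal minus the 75th percentile of the array (y axis) for each of the 34 probes in the 4 pools (x axis), by gene. Each line is a probe, the thick line is the brightest probe of the gene, and filled points are well above background. All 4 PGAM1 probes and all 3 LDHA probes sit lower in both low-fertile pools, whereas PGK1, PGK2 and LDHC have no filled point.

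GAPDHS, the testis isoform that spermatozoa use in place of GAPDH, was not called at its brightest probe and was lower at the other. At 635 the processed signals were 29.7 and 25.4 (high-fertile) against 30.7 and 17.8 (low-fertile). The groups overlapped, with a difference of -0.15 (SE 0.241, limma adjusted p = 0.673), and without the second low-fertile pool, in which the probe was not well above background, the difference turned to 0.16. At 1152 the signals were 25.2 and 24.2 against 8.8 and 13.3. Neither low-fertile array measured the probe well above background, so the low-fertile level is uncertain. By the signals as measured the high-fertile level was 2.15-fold higher, which is not a strict limit. The fitted difference was -1.10 (SE 0.272, limma adjusted p = 0.0358), and it was -0.71 without the first low-fertile pool and -1.49 without the second. This call was lost without the first high-fertile pool (adjusted p = 0.122) or the second (0.111), and with quantile normalization (0.0921) or normexp background correction (0.0584). It is the probe that matches GAPDH at 86.0% and 87.0% of overlapping bases.

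Within an array, the brightest GAPDH probe exceeded the brightest GAPDHS probe by 2.53 and 2.70 log2 units in the high-fertile pools and by 1.76 and 2.31 in the low-fertile pools. These log2 gaps compare probes of different binding strength and are not ratios of RNA amounts, but their change between groups shows whether the probes moved unequally. The gap was smaller in the first low-fertile pool. The second low-fertile array did not measure the GAPDHS probe at 635 well above background, so its gap of 2.31 is uncertain and is not set against the high-fertile gaps. With the values as measured the difference in the mean gap was -0.58, for which an exact permutation test gave a two-sided p of 0.333, the smallest that 2 pools against 2 can give. It was -0.31 without the first low-fertile pool and -0.85 without the second. Against the GAPDHS probe at 1152 the same GAPDH probe gave gaps of 2.77, 2.76, 3.56 and 2.72 and a difference of 0.37 (exact p = 1.0). Neither low-fertile array measured that GAPDHS probe well above background, so the low-fertile gaps against it are uncertain and no direction is read from them. Over the 14 pairs of tested probes, 7 of them with that probe, the difference ran from -0.95 to 1.26, and with the median over all tested probes of a gene it was 0.04 (exact p = 1.0).

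**Figure D2:**
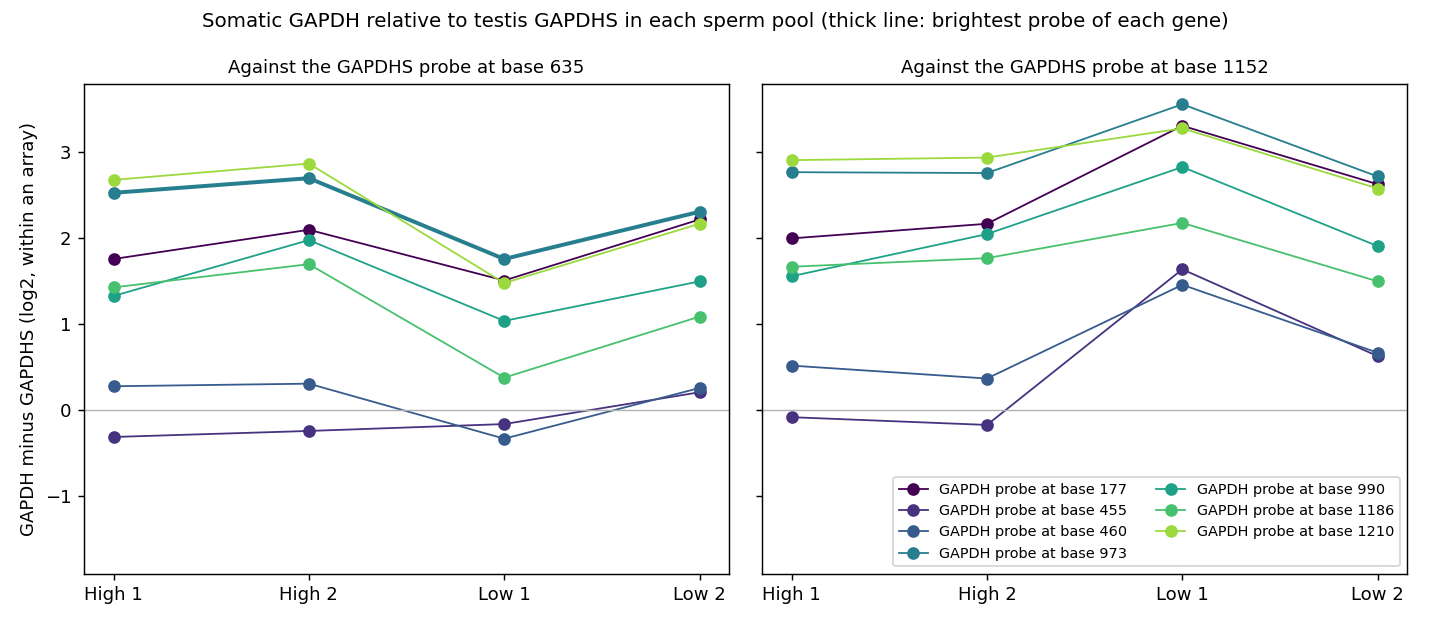
GAPDH minus GAPDHS log2 signal within an array (y axis) in the 4 pools (x axis), for each of the 7 tested GAPDH probes (colours) against each GAPDHS probe (panels). For the brightest probes (thick line, against the probe at 635) the gaps are 2.53 and 2.70 in the high-fertile and 1.76 and 2.31 in the low-fertile pools. The GAPDHS probe was not well above background on the second low-fertile array at 635 and on either low-fertile array at 1152. These points are uncertain, and no direction is read from them.

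The phosphoglycerate kinases, which make the first ATP of the pathway, were not measured above background in any pool. PGK1 has 3 probes and PGK2 has 1, and none of the 4 was well above background on any array. The PGK1 probe at 534 gave 14.5 and 9.9 (high-fertile) against 12.0 and 7.6 (low-fertile). The PGK1 probes at 917 and 1437 stayed between 3.1 and 13.8. PGK2, the testis isoform, gave 6.2 and 4.0 against 3.8 and 6.0. Signals at this level have no order, so no difference and no PGK1 to PGK2 gap is given, and absence of the RNA does not follow from them. Such values do not check the testis origin of the RNA through PGK2.

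PGAM1, the mutase that moves the phosphate of phosphoglycerate, was lower at every probe, 4 of 4. Its brightest, at 1262, gave 553.0 and 542.3 (high-fertile) against 113.7 and 108.6 (low-fertile). The low-fertile level was 0.215 of the high-fertile level (difference -2.22, SE 0.144, limma adjusted p = 0.00221), with log2 signals of 3.89 ± 0.03 (SD, n = 2) and 1.68 ± 0.08 (SD, n = 2). Leaving out any 1 pool kept the difference between -2.27 and -2.16, with the call. With the median over its tested probes the PGAM1 difference was -1.21 (adjusted p = 0.00401). At 1011 the signals were 180.4 and 177.7 against 76.8 and 70.3, a difference of -1.20 (SE 0.140, adjusted p = 0.0044). Fewer low-fertile arrays reached the mark at the remaining probes, 1 of 2 for each. At 1609 the signals were 80.9 and 78.2 against 38.7 and 25.3 (difference -1.26, SE 0.191, adjusted p = 0.00845). At 313, the probe nearest the beginning, they were 44.9 and 50.8 against 32.4 and 27.0 (difference -0.60, SE 0.149, adjusted p = 0.0357). The call at 313 was lost whichever pool was left out (adjusted p from 0.0659 to 0.164), and after a local spatial correction its difference was -0.36 (adjusted p = 0.205).

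ENO1, the enolase that makes phosphoenolpyruvate, was called lower at the 2 of its 5 probes that were tested, both through the high-fertile pools only. These share 49 bases, so they are nearly repeats of the same measurement. The brightest, at 1726, gave 54.8 and 68.2 (high-fertile) against 28.8 and 19.6 (low-fertile) (difference -1.28, SE 0.200, limma adjusted p = 0.00941). Without the second high-fertile pool its call was lost (adjusted p = 0.0507, difference -1.13). At 1737 the signals were 49.4 and 58.2 against 18.8 and 18.9. Neither low-fertile array measured that probe well above background. By the signals as measured the high-fertile level was 2.68-fold higher (limma adjusted p = 0.00425). The 3 untested ENO1 probes, at 264, 298 and 700, lay between 4.4 and 25.6 and were well above background on at most 1 array each, so only the end of the ENO1 transcript was measured. With normexp background correction and its offset of 50 the ENO1 differences were -0.40 at 1726 (adjusted p = 0.0102) and -0.54 at 1737 (adjusted p = 0.00207).

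LDHA, the lactate dehydrogenase subunit of muscle and other somatic tissue, was called lower at 3 of 3 probes, all of which were tested through the high-fertile pools only. The brightest, at 1445, gave 137.3 and 143.5 (high-fertile) against 27.6 and 30.2 (low-fertile). The groups were far apart and the low-fertile level was 0.218 of the high-fertile level (difference -2.20, SE 0.167, limma adjusted p = 0.00225). At 1569 the signals were 138.0 and 137.8 against 23.4 and 15.7 (difference -2.76, SE 0.182, limma adjusted p = 0.00221). At both probes the second low-fertile array was not well above background, so the sizes of these differences are uncertain. Without that array they were -2.35 at 1445 and -2.56 at 1569. At 555 the signals were 25.6 and 31.9 against 12.0 and 9.5, with neither low-fertile array well above background. By the signals as measured the high-fertile level was 2.53-fold higher (limma adjusted p = 0.00559). Leaving out any 1 pool kept the difference at 1445 between -2.35 and -2.04, with the call. With normexp the LDHA differences were -1.27 at 1445, -1.42 at 1569 and -0.24 at 555 (adjusted p from 0.00018 to 0.0412).

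LDHC, the lactate dehydrogenase of testis and spermatozoa, has 1 probe, and its signals were 3.5 and 3.8 (high-fertile) against 5.3 and 6.2 (low-fertile). None was well above background, so no difference is read from them and no gap between LDHA and LDHC is given. Of the 3 testis isoforms, GAPDHS was thus the only one that any array measured well above background, and the contrast of somatic with testis isoforms rests on that pair.

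Among probes measured well above background on all 4 arrays, the difference between the groups was more negative at later probes in the 3 genes where it could be followed, a pattern noticed after the values were seen. GAPDH went from -0.21 at 177 to -1.10 at 1210, ALDOA from 0.43 at 820 to -0.17 at 1520, and PGAM1 from -1.20 at 1011 to -2.22 at 1262. The start base is not a safe guide for that PGAM1 probe: the files give it 6 bases (chr26:20640411-20640416, minus strand), which lie beyond the probe at 1609 (chr26:20640453-20640512) in the direction of transcription. The last such probe was thus the more negative in 3 of 3 member genes (median of last minus first -0.89), and over the array in 519 of 885 genes with such probes of the same accession at least 200 bases apart (58.6%, median -0.15). No direction along the transcript is read for LDHA and GAPDHS, since neither low-fertile array measured the LDHA probe at 555 or the GAPDHS probe at 1152 well above background, nor for TPI1, whose probes at 749 and 920 were not well above background on the second low-fertile array. RNA was primed with oligo dT for labelling, and the part of RNA length or integrity in this pattern was not tested.

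**Figure D3:**
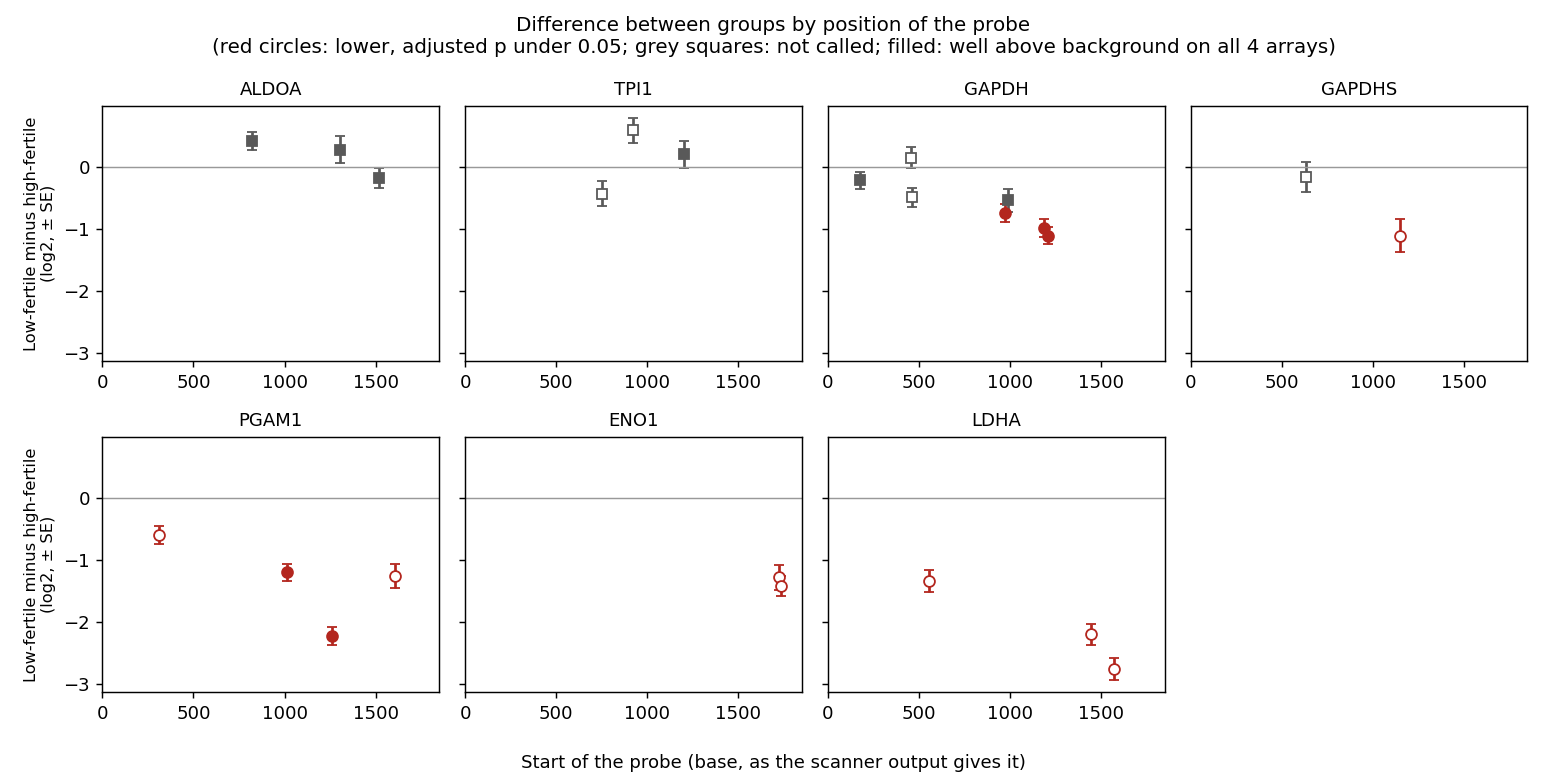
Low-fertile minus high-fertile log2 difference with its SE (y axis) at each of the 24 tested probes against the base at which the probe starts (x axis), by gene. Red circles passed an adjusted p of 0.05, grey squares did not, and filled symbols were well above background on all 4 arrays. The filled GAPDH symbols run from -0.21 to -1.10 and those of PGAM1 from -1.20 to -2.22 along the transcript. Open symbols rest on low-fertile signals of which 1 or both were not well above background, as for LDHA and GAPDHS, and no trend is read from them.

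Of the member probes 4 end in a run of at least 4 A, as probes at the very end of a transcript can, and their last 30 bases are shown with that run in capitals since these probes hold the largest PGAM1 and GAPDH differences.
PGAM1 1262 (chr26:20640411-20640416, minus strand): aatgtttttgtgttgcatttacttAAAAAA
GAPDH 1210 (chr1:94818827-94818886, plus strand): catcaataaaagtaccctatacccAAAAAA
ENO1 1737 (chr16:41650656-41650874, plus strand): aataaaaaggcctgagtgacccgtAAAAAA
TPI1 1201 (chr5:10564213-10564269, minus strand): tgtgggggaataaacacctggcactgAAAA

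Of the 51282 probes, 2.48% end in such a run and 8.35% hold the letters AATAAA, the usual polyadenylation signal, searched on the printed strand only. They stand in 6 member probes: the GAPDH probe at 1210, the ENO1 probes at 298, 1726 and 1737, the TPI1 probe at 1201 and the ALDOA probe at 1520. Of the 4 probes shown those of PGAM1, GAPDH and TPI1 gave differences of -2.22, -1.10 and 0.21, and that of TPI1 was not called (limma adjusted p = 0.52). That of ENO1 gave -1.42 as measured, with neither low-fertile array well above background. The part of the end in A in these differences was not tested. Over all tested probes the median difference was -0.11 for those that end in the run and 0.00 for those that do not.

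Of 74 other genes of glycolysis, its regulation, glucose and lactate transport, and pyruvate use, 68 are on the array by name and 46 were tested at their brightest probe. Of these 11 (of 46) were lower in low-fertile spermatozoa, 4 were higher and 31 were not called, where 16.3% of all genes tested in this way were lower and 9.6% were higher. The median difference was 0.13, against 0.01 over all 16549 genes and -0.73 over the 7 member genes, of which LDHA, ENO1 and GAPDHS were tested through the high-fertile pools only. Among the 30 well above background on all 4 arrays, 4 were lower and 3 were higher, where 9.32% and 13.2% of the 10588 such genes were, and the median was 0.20, against 0.15 over all such genes and -0.26 over the 4 such member genes. By list, 3 of 15 tested glycolytic enzymes, 3 of 9 transporters, 5 of 18 genes of pyruvate use and the citrate cycle and 0 of 4 regulators were lower, and 2, 2, 0 and 0 were higher. Of the 11 lower genes 7 were tested through the high-fertile pools only, namely HKDC1, the transporters SLC2A2, SLC2A3 and SLC16A1, and PDK4, OGDH and SUCLG1 of pyruvate use and the citrate cycle. Of the 16 pathway genes tested in that way these 7 were lower and 1 was higher, where 29.8% and 1.39% of all 5746 such genes were. At an unadjusted p under 0.05, limma gave 0 lower and 1 higher regulator, and 0 higher genes of pyruvate use and the citrate cycle.

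HKDC1, a hexokinase that phosphorylates glucose at the entry of the pathway, was lower. It gave 30.0 and 40.6 (high-fertile) against 5.8 and 6.2 (low-fertile), where neither array measured it well above background. The difference as measured was -2.47 (limma adjusted p = 0.00245). With low-fertile signals set no lower than the lowest signal marked well above background, the high-fertile level was 4.87-fold higher. With normexp background correction, which adds an offset of 50 to each signal and so draws in the differences of dim probes, the HKDC1 difference was -0.48 (adjusted p = 0.00449). Of the genes of phosphofructokinase, the committed step, PFKL and PFKM were called higher and PFKP was not called (80.1 and 154.3 against 130.7 and 119.4, difference 0.25, adjusted p = 0.574). PFKL gave 31.9 and 29.3 against 59.6 and 55.6 (difference 1.00, SE 0.147, adjusted p = 0.00789), a call lost without the second high-fertile pool (adjusted p = 0.0506), and PFKM 21.3 and 20.1 against 28.7 and 28.2 (difference 0.54, adjusted p = 0.048), a call lost without any 1 of the pools (adjusted p from 0.0655 to 0.192) and with the spike-in shift (difference 0.16, adjusted p = 0.337). Of the other PFKL probes that at 2724 gave 0.72 (limma adjusted p = 0.0475), and the untested one at 1822 lay at -0.52. The 5 other PFKM probes were not tested and lay between -0.35 and 0.21. LDHB, the other somatic lactate dehydrogenase subunit, gave 120.9 and 112.4 against 48.9 and 44.9 (difference -1.23, adjusted p = 0.00446), so both somatic subunits were lower at the brightest probe. Of its other probes that at 878 gave -2.63 (adjusted p = 0.00221) and that at 1216 gave -1.08 (adjusted p = 0.29), while the untested ones at 796 and 1205 lay at -0.07 and 3.39. With the median over its tested probes the LDHB difference was -1.72, but the call was lost (limma adjusted p = 0.0896).

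Among the transport genes, calls of both directions were made, and probes of the same gene did not always move together. SLC2A3, the glucose transporter GLUT3, gave 97.8 and 105.0 (high-fertile) against 21.6 and 28.6 (low-fertile) (difference -1.94, SE 0.226, limma adjusted p = 0.00435). Of its 5 tested probes those that start at 2277, 3709 and 4000 were lower (-1.35, -1.94 and -1.39), whereas those at 733 and 1740 were at 1.00 (adjusted p = 0.11) and 0.00 (adjusted p = 0.988), and with the median over all 5 its call was lost (difference -0.11, adjusted p = 0.777). SLC2A2, the transporter GLUT2, gave 29.3 and 42.2 against 16.1 and 9.6, with neither low-fertile array well above background. By the signals as measured it was 2.66-fold higher in high-fertile spermatozoa (limma adjusted p = 0.0159). The call was lost without the second high-fertile pool (difference -1.16). The other SLC2A2 probe, at 1900, was not tested and lay at 0.48. With normexp the differences kept their direction but were -0.21 for SLC2A2, -0.80 for SLC2A3, 0.31 for SLC16A8, -0.60 for LDHB, 0.41 for PFKL and 0.18 for PFKM, whose call was lost (adjusted p = 0.0652). The lactate carriers SLC16A3 and SLC16A8 were called higher in low-fertile spermatozoa at their brightest probes. SLC16A3 gave 167.1 and 142.2 against 234.8 and 232.1 (difference 0.69, adjusted p = 0.0336) and SLC16A8 68.1 and 62.5 against 95.2 and 98.2 (difference 0.65, adjusted p = 0.0351). The SLC16A3 call was lost without any 1 pool (adjusted p from 0.0528 to 0.155), and that of SLC16A8 without either high-fertile pool or the second low-fertile pool (0.0978 to 0.154). With the spike-in shift both were lost (differences 0.30 and 0.27, adjusted p = 0.163 for each). The 3 other SLC16A3 probes gave 0.14, 0.09 and 0.22 (adjusted p from 0.448 to 0.835), and the median over its tested probes 0.11 (adjusted p = 0.708). PDK3, a kinase that switches off pyruvate dehydrogenase, gave 617.2 and 700.5 against 242.2 and 247.0 (difference -1.34, SE 0.160, adjusted p = 0.00466), and its other probe, at 1422, gave -1.35 (adjusted p = 0.00521).

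**Figure D4:**
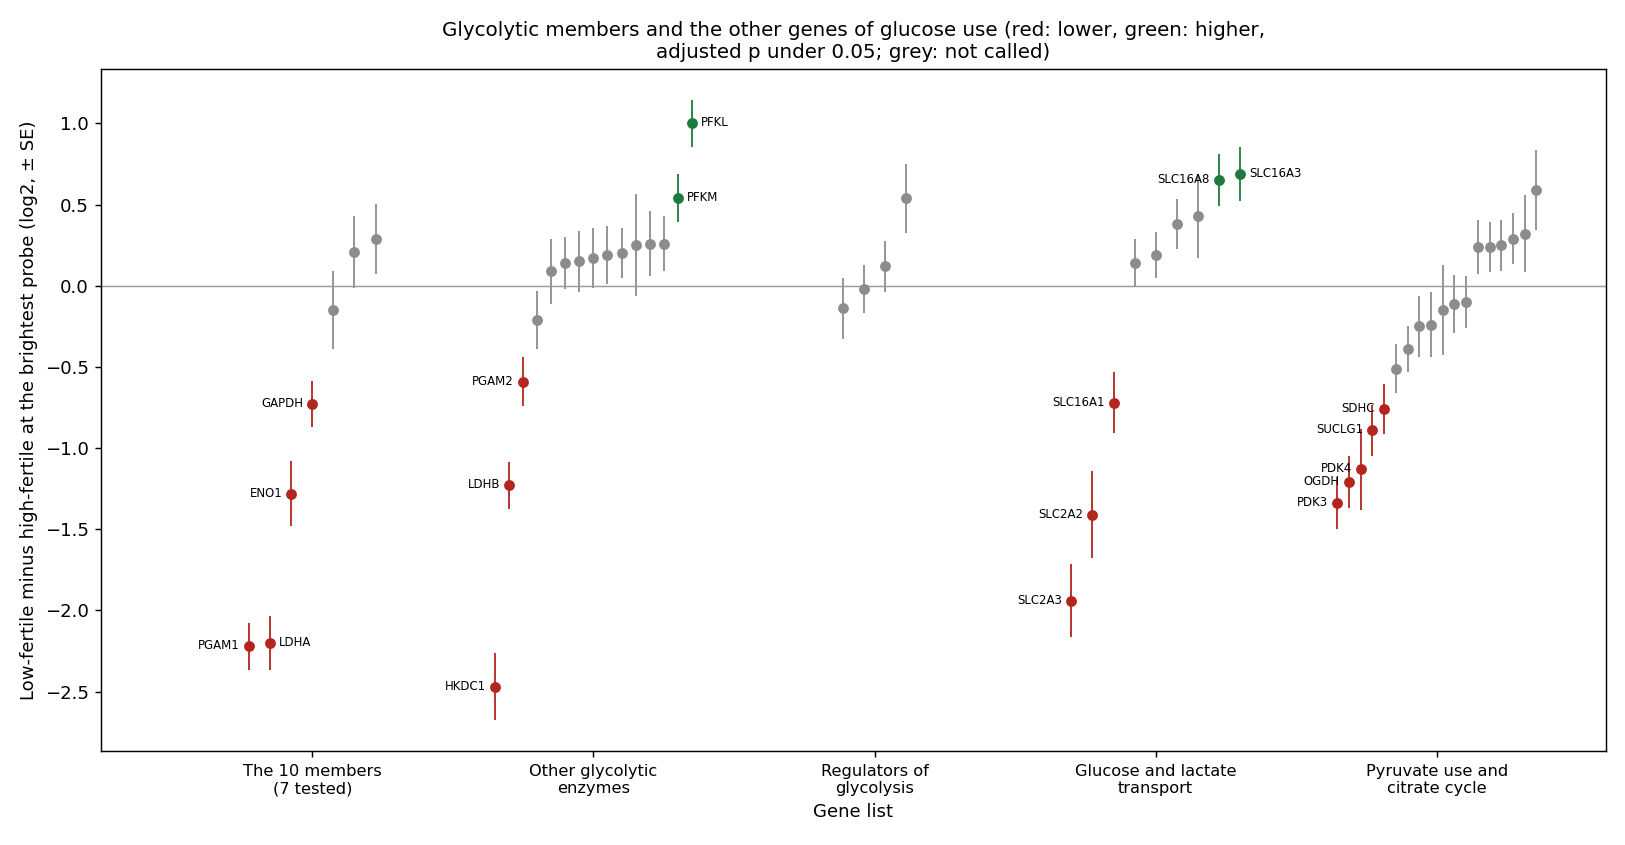
Low-fertile minus high-fertile log2 difference with its SE at the brightest probe (y axis) of the 7 tested member genes and of the 46 tested genes of 4 other lists (x axis). Red genes were lower and green genes higher at an adjusted p of 0.05, and grey genes were not called. PGAM1 lies at -2.22 and LDHA at -2.20, and PFKL lies at 1.00. The points of HKDC1 and SLC2A2, which neither low-fertile array measured well above background, are uncertain in size.

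The values bear on the RNA of the whole preparation, in which fewer cells of a type and less RNA per cell cannot be told apart. On the 4 arrays (high-fertile 1 and 2, low-fertile 1 and 2) the probes well above background numbered 23271, 23228, 25642 and 13033, so the second low-fertile array measured the fewest. Of 20 sperm genes 11, 8, 15 and 5 were well above background. Their summed signal was 902 to 1110 before normalization and 25.8 to 30.3 after it, and the sums of the other lists below are normalized. ODF1, an outer dense fibre protein of the tail, and ACR, the acrosin of the acrosome, were bright on every array (244.1 to 310.4 and 245.1 to 262.7), whereas AKAP3, AKAP4 and ROPN1, proteins of the fibrous sheath, were not well above background on any. PRM1, a protamine, was the only sperm gene called (46.7 and 46.5 against 71.6 and 68.6, difference 0.67, adjusted p = 0.0231), and was higher in low-fertile spermatozoa. PRM2, another protamine, gave 179.9 on the first high-fertile array, where 5 of the 6 neighbouring spots were bright as well, and 9.6 to 14.6 on the others. Leukocyte genes were well above background for 8, 8, 8 and 6 of 10, with a normalized summed signal of 591 to 621 in the high-fertile and 808 to 880 in the low-fertile pools. The highest of them were LYZ (12423.3 to 16232.8) and PTPRC (6980.6 and 7126.0 against 11503.3 and 11388.3, difference 0.78, adjusted p = 0.016, the only leukocyte gene called), while CD3E and CD8A were not well above background on any array. Epithelial genes were above background for 6 of 8 on each array (25.2 and 25.4 against 26.9 and 30.0), red cell genes for 2 to 4 of 6 (7.19 and 10.8 against 8.95 and 9.61) and genes of somatic testis cells for 6 to 8 of 8 (20.1 and 23.4 against 21.6 and 24.6). In these lists HBB, a globin of red cells (20.4 and 29.0 against 54.1 and 54.1, difference 1.24, adjusted p = 0.0118), and STAR, of steroid-making testis cells (111.3 and 103.7 against 170.1 and 179.4, difference 0.79, adjusted p = 0.0212), were called higher in low-fertile spermatozoa, and these genes and PRM1 are named after their values were seen. The part of other cells in the member differences was not tested. Without the second low-fertile pool the difference was -2.27 for PGAM1, -2.35 for LDHA, -1.09 for ENO1 and -0.70 for GAPDH at the brightest probes. Each group occupied its own row of the slide, so position and group cannot be told apart.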

How the data were processed

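Sperm RNA of 4 pools (2 a group, 2 bulls each) was labelled with Cy3 and hybridized to a bovine array. Images were extracted by the authors in Agilent Feature Extraction 11.5.1.1, and the deposited scanner output holds linear intensity with the background subtracted. The authors shifted log2 signals by the 75th percentile in GeneSpring GX 12.6, and the deposited value table holds these log2 values (median difference from the values recomputed here 0.009; 0.142% of values differed by over 1, up to 12.22, and those of the members by at most 0.03).

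From the scanner output, spots marked as outliers were left out, spots of a probe averaged on the log2 scale, and the 75th percentile of each array subtracted (processed signals of 36.7, 37.1, 37.0 and 32.7). A probe was well above background when at least 0.5 of its spots were. Probes were tested in limma 3.58.1 under R 4.3.3 (fitted prior 3.52 degrees of freedom) with Benjamini-Hochberg adjustment, after a check on simulated data, and gaps between isoforms by an exact permutation test (scipy 1.17.1). The brightest probe is that of the highest mean over the 4 arrays. Where neither low-fertile array was well above background, the fold sets the high-fertile mean against the higher, on each low-fertile array, of 2 signals. These are the lowest signal well above background and the probe's own. Such a fold is not a strict limit. Signals of 30.2 (LDHA at 1445) and 32.2 (TPI1 at 920) on the second low-fertile array were not marked either. The number of arrays limits the precision. In a fit without a pool, its group has 1 array, which is assumed to vary like the other group, so a call kept or lost there rests on the spread of that group and the fitted prior. No columns were left unmapped (0).

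The members, lists and tests were chosen with earlier results of these data known. Named were all 10 members with every probe, and of the other lists the up to 5 genes a direction, ranked by change among those called at an adjusted p of 0.05, and the brightest and dimmest sperm genes. Only 4 genes were higher. A pathway gene is not reported here and was left out of the counts. Pool numbers did not pair the pools (r = 0.00548 between the groups' deviations over 21024 probes). No member probe was saturated.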

Additional observations from a re-analysis of the deposited data

How the results depend on the processing

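Alternatives changed the background correction, the normalization, the filter, outlier spots, the variance model, the test, the values, the probe that stands for a gene, a spatial correction, a replicate block and each pool left out. Counts of genes at the brightest probe were 4 lower members, 11 lower and 4 higher other pathway genes, and counts of member probes 13 lower and 0 higher. Without a filter, with a weaker mark of signal, and in the methods' t-test with adjustment each of these became 0, as it did for all probes of the array (unadjusted p under 0.05 for 9278, 9796 and 6084). The paper's limits are a p under 0.05 and a fold change over 1, which is read here as a log2 change. With these limits and no adjustment the t-test gave 9 lower and 0 higher member probes, beside 1881 and 396 of 21024 probes. By p alone it gave 13 and 1, beside 3545 and 2539. Probes well above background on all 4 arrays, a filter that leaves fewer probes tested, gave 2 lower member genes and 5 lower other pathway genes. Of 11 member probes 6 were lower and 1 (ALDOA at 820) was higher, beside 1625 and 2714 of 12552 probes over the array. Normexp gave 13 lower and 2 higher member probes, beside 4446 and 2849 of 21033 over the array. It also drew in other member probe differences by over 1.5 times, to -0.49 for GAPDH at 1186 and to -0.29 and -0.58 for PGAM1 at 313 and 1609, which were still called. The spike-in shift, which raised the share of lower calls over the array from 65.6% to 92.4%, left 1 higher pathway gene. The replicate block left 2 and lost the PGAM1 probe at 313 (adjusted p = 0.0583). Without any 1 pool, fewer probes over the whole array were called in either direction than in the main test. Whether the members lost more calls than the array in these fits was not tested. Leaving out 1 pool gave 2 to 4 lower member genes, 9 to 12 lower and 0 to 1 higher member probes, and 5 to 9 lower and 0 to 3 higher pathway genes (the lowest without the second high-fertile pool). Directions turned for GAPDHS without the second low-fertile pool (0.16, with -0.45 as the other end of the range over pools left out), ALDOA with the spike-in shift (-0.09) and with the median over a gene's tested probes (-0.12), TPI1 with the spike-in shift (-0.18) and without the second high-fertile pool (-0.08, up to 0.49 without the first), and the GAPDH to GAPDHS gap with the gene median (0.04). With that median GAPDHS was lower (-0.63, adjusted p = 0.0287). The cause of these changes was not tested. PGAM1 and LDHA lost their call at the brightest probe without a filter, with the weaker mark and in the t-test, and under no other alternative that tested them (the LDHA probe is not among those well above background on all 4 arrays). Where the call was lost the differences stayed at -2.22 and -2.20. At an unadjusted p under 0.05 in the test of each such setting, 4 member genes were lower.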
